A study of Homo sapiens with 12 samples.

Results

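The response to GSK-LSD1 was followed in SET-2 cells whose LSD1 is wild type (WT). It is the comparison of 3 libraries from cells given 250 nM GSK-LSD1 with 3 libraries from cells given 0.1% (v/v) DMSO, each for 48 h. These are 6 of the 12 libraries of the study, and the other 6 are the same pair of treatments in SET-2 cells described as drug-resistant, whose LSD1 has an arginine inserted between residues Leu659 and Asn660 (insR). SET-2 is an established human acute myeloid leukemia line, and all groups share that background and the same culture medium. The labels do not say whether the WT cells are a clone or a pool, nor whether the replicates were grown apart. The p-values therefore measure how far these libraries differ, which may be technical. Of 63677 genes in the deposited tables, 12864 passed a filter on low counts over all 12 libraries, and these genes are the members described here. The filter looks at all 4 groups, so a gene can pass through any 1 of them. Of the genes tested 22 had no read in WT DMSO and 20 none in WT GSK-LSD1, and the 3 with none in either passed on the insR libraries. In 160 genes only WT GSK-LSD1 libraries reached the filter's minimum of 1.67 CPM, and in 14 genes only WT DMSO libraries did. Such genes had to differ, so the 141 of the 160 called higher and the 12 of the 14 called lower, although counted below, are no support for a direction.

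LSD1, encoded by KDM1A, is a demethylase that removes activating methyl marks from histone H3 and sits in a corepressor complex with CoREST and histone deacetylases. In blood cells the transcriptional repressors GFI1 and GFI1B bring this complex to DNA, and in myeloid leukemia cells it holds back genes of myeloid differentiation. GSK-LSD1 binds the enzyme's cofactor irreversibly. Levels are given as CPM, that is, reads of a gene per 1000000 reads in genes after TMM scaling. Libraries were read from transcript ends, so a level does not scale with transcript length. Fold changes are log2 values of treated over DMSO cells from edgeR's quasi-likelihood test, each with its standard error (SE). A gene is called higher or lower where the Benjamini-Hochberg adjusted p over all 12864 genes is below 0.05. Where 3 values are listed for a group they are replicates 1, 2 and 3. Bulk RNA cannot tell fewer cells of a type from less RNA per cell.

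Reads in genes numbered 5562853 to 7438754 in the WT DMSO libraries and 5022916 to 9599482 in the treated ones. The drug target KDM1A was at 290.4, 238 and 266 CPM in DMSO and 219, 218 and 213 CPM in treated cells (log2 fold change -0.29, SE 0.08, adjusted p = 0.00451), and a change in its RNA is not a measure of enzyme inhibition. Of 13 megakaryocyte and erythroid markers, 12 had a read and PF4 was at 0, and their summed level was 3602 to 3929 CPM in DMSO and 1946 to 2236 CPM in treated libraries. Most of the fall in this sum was in 2 globin genes. HBG1 went from 993 to 1240 CPM in DMSO to 127 to 146 CPM in treated libraries, and HBG2 from 683 to 789 CPM to 55.6 to 73.2 CPM. ITGA2B went against that sum, from 689 to 779 CPM in DMSO to 1075 to 1295 CPM in treated libraries. All 8 myeloid blast markers had a read, with summed levels of 823 to 877 CPM and 1176 to 1188 CPM. CD34 made up most of the difference, from 279 to 308 CPM to 671 to 713 CPM, while KIT was lower, from 400 to 411 CPM to 246 to 262 CPM. Summed markers of T, B, NK, endothelial, fibroblast and epithelial cells stayed at or below 24.4 CPM in every WT library, and MS4A1, CD22, KLRD1, GZMB, TEK, DCN, LUM and KRT19 had no read. WT DMSO replicate 3 and WT GSK-LSD1 replicate 1 deviated from their groups in the same direction. Among 8659 genes of at least 10 CPM, 72 were below 0.5 times the mean of the other WT DMSO libraries in replicate 3, and 80 below 0.5 times that of the other treated libraries in replicate 1. As many as 35 genes were in both sets, and 5 of these 35 were called, all lower: AQP3, C1orf174, RAD54L, RAP2A and TXN, named here after their values were seen. With both libraries left out, 5327 genes were called against 5816 with all libraries, and 4926 of them kept the same call and direction.

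The first question was how the response divides by expression level. Over all levels 45.2% of the genes tested were called, 22.7% higher (2916 genes) and 22.5% lower (2900 genes). This balance depends on the scaling, since upper-quartile scaling gave 3231 higher and 2564 lower. Of 1694 genes below 3 CPM, 291 were higher and 147 lower, so 66.4% of the calls were increases. Leaving out the 101 higher and 11 lower genes that reached the filter's minimum in 1 WT group alone, 190 were higher and 136 lower, and with no count filter the calls below 3 CPM were 463 and 198. The remaining such genes, of 141 called higher and 12 called lower in all, lie in the bands above and are counted there. From 3 to 10 CPM the calls were 570 higher and 300 lower, and from 10 to 30 CPM 739 and 594. Above that level decreases led: 812 higher and 1036 lower from 30 to 100 CPM (914 and 902 under upper-quartile scaling, the only one of the alternatives to change a band's lean), 346 and 602 from 100 to 300 CPM, and 158 and 221 at 300 CPM and over. Increases were thus 36.5% of the calls from 100 to 300 CPM and 41.7% at 300 CPM and over. The median log2 fold change of all genes in a band moved the same way, from 0.20 below 3 CPM through 0.03 at 10 to 30 CPM to -0.12 at 100 to 300 CPM.

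**Figure D1:**
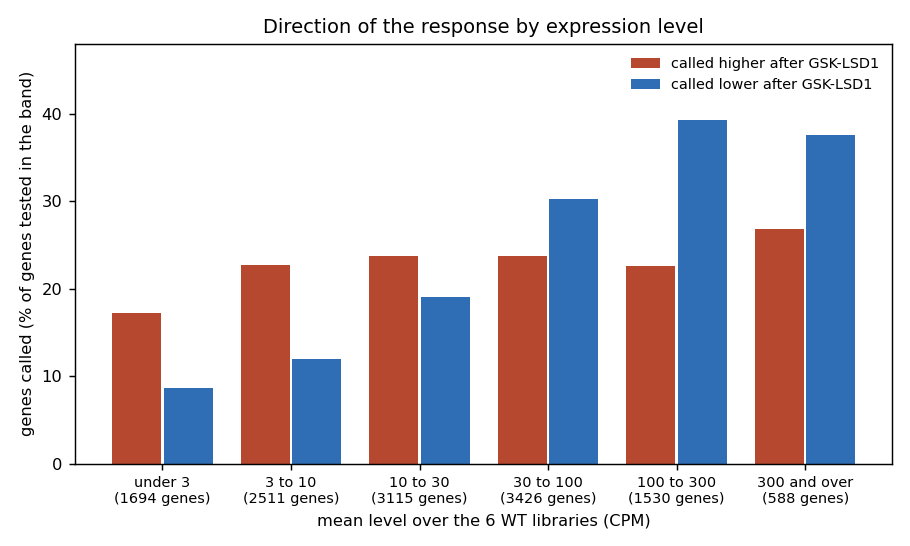
Share of the genes tested that were called higher (red) or lower (blue) after GSK-LSD1 in WT cells, in percent, by mean level over the 6 WT libraries; the number of genes per band is under each pair of bars. Higher calls lie between 17.2% and 26.9% in every band, while lower calls climb from 8.68% below 3 CPM to 39.3% at 100 to 300 CPM.

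The precision changed with level as well. The share of genes called was 25.9% below 3 CPM, 34.6% from 3 to 10 CPM, 42.8% from 10 to 30 CPM, 53.9% from 30 to 100 CPM, 62.0% from 100 to 300 CPM and 64.5% at 300 CPM and over. The median SE of a log2 fold change fell over the same bands from 0.46 to 0.08. The smallest change called was 0.84 on the log2 scale below 3 CPM and 0.18 at 300 CPM and over. A 95% interval that lay wholly within a 1.25-fold change in either direction was reached by 1049 genes (8.15%), 129 of them at 300 CPM and over and none below 10 CPM. For weakly expressed genes a missing call therefore says little about size at this depth.

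Most of the calls were modest changes. At least 2-fold changes were called in 12.1% of the genes tested, 997 higher (7.75%) and 560 lower (4.35%). Below 2-fold, 1919 genes were called higher and 2340 lower, an order that turned under upper-quartile scaling (2138 and 2050) and in none of the other fits. The genes with the smallest called changes, below 0.5 on the log2 scale, numbered 798 higher and 1193 lower, with median levels of 71.2 and 79.7 CPM. Those past 3 on the log2 scale numbered 115 higher and 47 lower, with median levels of 4.64 and 2.30 CPM.

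In reads the modest changes outweighed the large ones. Genes called higher by at least 2-fold held 1.62 ± 0.01% of reads in genes in DMSO and 4.57 ± 0.04% in treated libraries (SD, n = 3). Genes called higher by less than 2-fold held 20.8 ± 0.28% and 28.9 ± 0.42%. On the other side, genes called lower by at least 2-fold went from 3.30 ± 0.14% to 1.23 ± 0.08%, and those lower by less than 2-fold from 34.2 ± 0.28% to 24.9 ± 0.09%. The 7048 genes not called held 40.1 ± 0.32% and 40.3 ± 0.31%. These sets were made from the same contrast, so their direction is fixed and only the sizes are described.

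**Figure D2:**
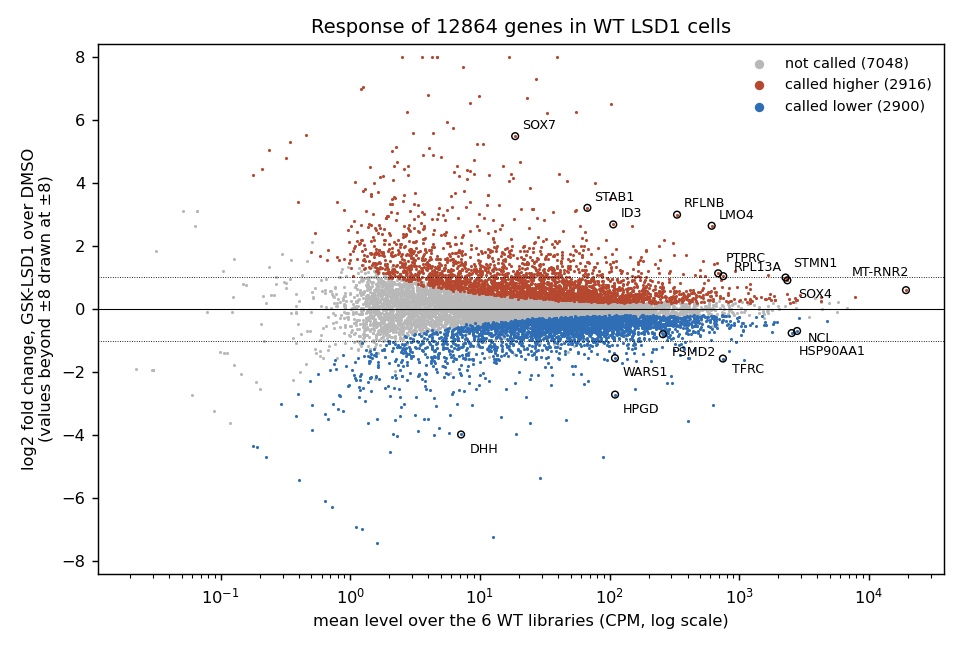
Log2 fold change of GSK-LSD1 over DMSO in WT cells against mean level (CPM, log axis) for each of the 12864 genes, coloured by call, with dotted lines at 2-fold and 17 genes of the text circled. Large changes lie mostly to the left, and the abundant genes on the right, such as STMN1, SOX4, NCL and HSP90AA1, lie near or within the dotted lines.

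The 8 modest increases that added most CPM, among genes whose libraries did not overlap between the groups, began with MT-RNR2, the large ribosomal RNA of mitochondria. It rose from 15074, 16877 and 14198 to 25952, 21689 and 22282 CPM (log2 fold change 0.60, SE 0.09, adjusted p = 1.5e-05). The share of reads from all mitochondrial genes, MT-RNR2 included, was 2.93% to 3.55% in DMSO and 3.97% to 4.54% in treated libraries. By the values above MT-RNR2 itself makes up most of that rise, so it does not show that other mitochondrial RNAs rose. The part of this share in other results was not tested. STMN1, whose protein stathmin destabilises microtubules, rose from 1436, 1512 and 1608 to 3065, 2888 and 3152 CPM (log2 fold change 0.999, SE 0.07, adjusted p = 6.85e-11). SOX4, a transcription factor of progenitor cells, rose from 1722, 1615 and 1564 to 3295, 3066 and 2853 CPM (log2 fold change 0.91, SE 0.09, adjusted p = 1.38e-08). In each of these 3 genes the lowest treated library was above the highest DMSO library, as their choice required. Of all genes tested, 51.9% did not overlap between the groups in either direction. The others were ribosomal and included RPS29 (3706 ± 434 to 4830.2 ± 304 CPM, SD, n = 3), RPLP1 (2490.4 ± 46.3 to 3420.5 ± 106 CPM), RPS19 (3882 ± 203 to 4637 ± 280.5 CPM) and the pseudogene RPS28P7 (2374 ± 79.4 to 3013 ± 47.9 CPM), whose reads may come from its parent gene. RPS19 had the smallest of these changes (adjusted p = 0.00745) and was not called without WT DMSO replicate 1 (log2 fold change 0.21, edgeR adjusted p = 0.0521).

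The 8 modest decreases that removed most CPM were led by NCL, which encodes nucleolin, a nucleolar protein of ribosome assembly. NCL fell from 3415, 3319 and 3634 to 2455, 1955 and 1993 CPM (log2 fold change -0.70, SE 0.09, adjusted p = 8.24e-07). HSP90AA1, the inducible cytosolic form of the chaperone HSP90, fell from 3113, 3226 and 3246 to 2057, 1770 and 1828 CPM (log2 fold change -0.76, SE 0.08, adjusted p = 2.82e-08). U2AF1, a splicing factor that reads the 3′ splice site, fell from 5384, 5943 and 4814 to 3712, 4312 and 4299 CPM (log2 fold change -0.39, SE 0.09, adjusted p = 0.00166). The groups did not overlap for any of the 3, which their choice again required, and replicate 1 of NCL lay above the other treated libraries. The remaining members were S100A4 (2215 ± 212 to 1341 ± 134 CPM, SD, n = 3), CHCHD2 (2139.8 ± 208 to 1536 ± 130.3 CPM), the superoxide dismutase SOD1 (1328 ± 85 to 744 ± 38.6 CPM), SERBP1 (1899 ± 267 to 1333 ± 194 CPM) and the heterochromatin protein gene CBX3 (2243 ± 170.3 to 1682 ± 155 CPM).

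The second question was which functions moved. Of 61 functional gene lists, 29 had more members higher than lower, 30 more lower than higher, and 2 an equal number. Their 1891 genes tested gave 449 higher and 639 lower calls. Each list's count is to be read against 22.7% higher and 22.5% lower among all genes tested, and its median against 0.01 for all genes. Level matters too: lower calls were 30.2% of genes from 30 to 100 CPM, 39.3% from 100 to 300 CPM and 37.6% at 300 CPM and over. Lists of abundant genes are to be read against those shares, since the lists were not matched for level. Lower calls led in most lists of making and folding proteins, mitochondria and metabolism, and higher calls in most lists of the cell surface, the lysosome, signalling and chromatin regulators. Where 5 or fewer members of a list moved in a direction, those reported here are named below, and those not given with all 6 library values were named after their values were seen. List members given with all 6 library values were chosen among called genes whose groups did not overlap. Their separation is therefore no added evidence.

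**Figure D3:**
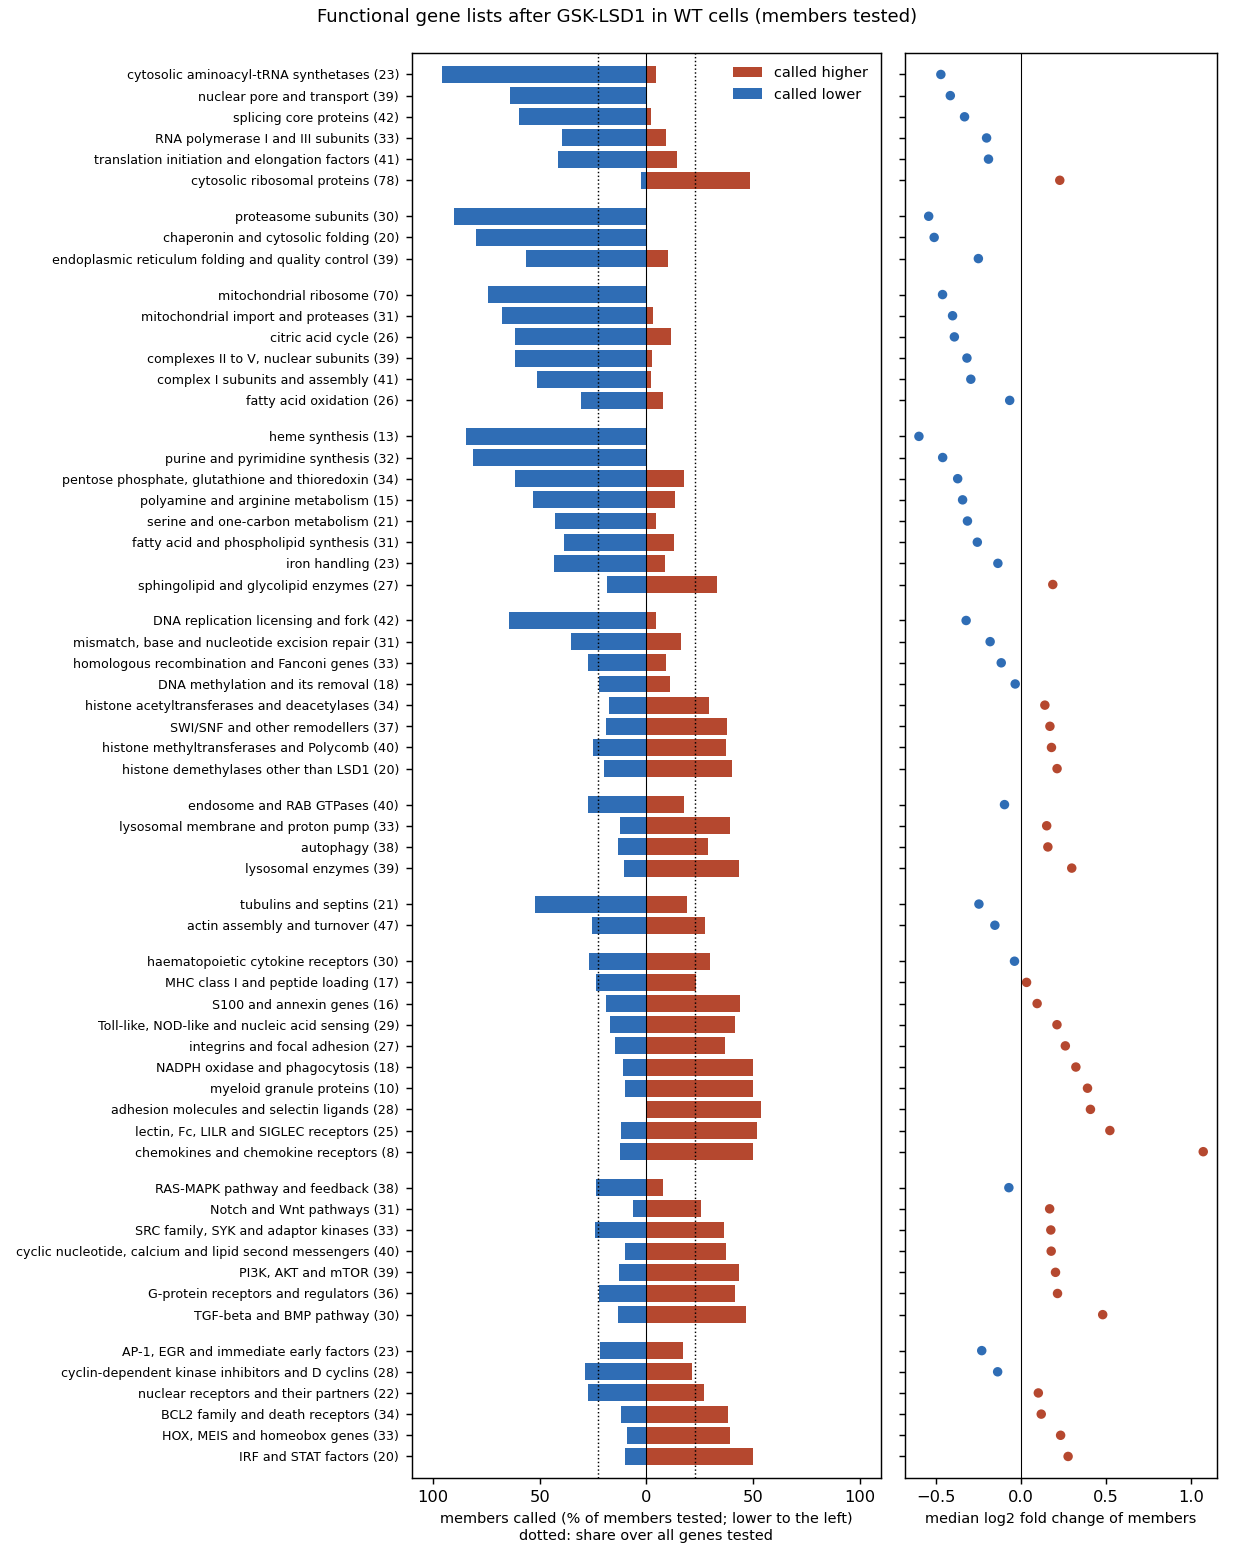
Left, members of each functional list described here called higher (red, to the right) or lower (blue, to the left) as a percentage of the members tested, whose number follows the list's name; dotted lines mark the shares over all genes tested. Right, the median log2 fold change of each list's members, which lies between -0.60 for heme synthesis and 1.07 for chemokines and chemokine receptors.

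Protein synthesis split into 2 directions. Of 78 cytosolic ribosomal protein genes tested, 38 were higher and 2 lower, with a median log2 fold change of 0.23. RPL13A rose from 466, 514 and 497 to 959.5, 979 and 1102 CPM (log2 fold change 1.04, SE 0.08, adjusted p = 9.12e-11), RPL28 from 462, 494 and 523 to 832, 733 and 789.8 CPM and RPL15 from 467, 521 and 480.3 to 713, 713 and 746 CPM. RPL13A was the only one called higher by at least 2-fold. The 2 members that fell were RPS26 (5.27 ± 0.446 to 2.89 ± 0.364 CPM; log2 fold change -0.85) and RPL7 (8.33 ± 1.32 to 4.9 ± 0.425 CPM; -0.76). Ribosomal protein genes have many near-identical pseudogenes, so how reads were shared among copies is uncertain for each of them.

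The enzymes that charge tRNAs went the other way. Of 23 genes of cytosolic aminoacyl-tRNA synthetases and their scaffold proteins, 22 were lower and 1 higher, with a median of -0.47. WARS1, the tryptophanyl-tRNA synthetase, fell from 155, 162 and 176 to 58.8, 51.8 and 56.7 CPM (log2 fold change -1.56, SE 0.08, adjusted p = 2.83e-13). GARS1, which charges glycine, fell from 175, 172 and 177 to 94, 87.7 and 91.5 CPM, and the scaffold gene EEF1E1 from 86.6, 98.5 and 74.8 to 31.6, 46.3 and 40.2 CPM. Treated and DMSO libraries did not overlap for any of the 3, by the rule of choice. The member that rose was QARS1, the glutaminyl enzyme, from 119 ± 8.78 to 165 ± 1.74 CPM. Translation initiation and elongation factors had 17 of 41 lower and 6 higher. Their lower share of 41.5% is near the 39.3% of all genes from 100 to 300 CPM, the band of the list's median level (148 CPM). EIF2S1, the regulated subunit of the initiation factor that delivers the first tRNA, fell from 120.3, 112 and 116 to 63.9, 64.7 and 68.9 CPM (log2 fold change -0.81, SE 0.08, adjusted p = 3.24e-08). EIF2B3, part of the exchange factor that recharges it, fell from 65.3, 64 and 84.8 to 34.6, 34.6 and 38.2 CPM, and the scaffold EIF4G1 from 732, 733 and 775 to 496, 497 and 444 CPM.

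Upstream of translation, RNA polymerase I and III genes had 13 of 33 lower and 3 higher. The lower share was 39.4%, against 30.2% of all genes from 30 to 100 CPM, the band of the list's median level. POLR1G, a polymerase I subunit, fell from 111, 109 and 114 to 67.7, 54 and 56.4 CPM, and RRN3, which brings polymerase I to its promoter, from 235, 238 and 185 to 100.4, 124 and 123 CPM (log2 fold change -0.92, SE 0.11, adjusted p = 1.95e-06). The 3 that rose, GTF3C3, GTF3C5 and TAF1C, had log2 fold changes of 0.25, 0.39 and 0.70. Core splicing proteins had 25 of 42 lower and 1 higher, PRPF6 (log2 fold change 0.59). PRPF4, of the tri-snRNP, fell from 73.2, 67.5 and 80.9 to 40.8, 39.7 and 37.9 CPM, SNRPG from 163, 187 and 169 to 102, 102 and 113 CPM, and SNRPC, of the particle that reads the 5′ splice site, from 399, 419 and 402 to 283, 275 and 285 CPM. Of 39 nuclear pore and transport genes 25 were lower and none was higher in edgeR, with a median of -0.42. There was also none at an unadjusted p below 0.05, and none in DESeq2 or limma-voom, and the same held for increases in the proteasome, chaperonin and heme lists that follow. The membrane nucleoporin NUP210 fell from 113, 119 and 119 to 63.7, 65.3 and 73.1 CPM (log2 fold change -0.79, SE 0.09, adjusted p = 7.2e-08), NDC1 from 96, 102 and 102 to 67.1, 67 and 62.8 CPM and NUP93 from 293, 292 and 316 to 214, 211 and 199.7 CPM.

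Protein turnover and folding moved in the same direction as tRNA charging. The proteasome, the complex that degrades ubiquitin-tagged proteins, had 27 of 30 subunit genes lower and none higher, with a median of -0.54. PSMD2, a scaffold of its cap, fell from 332, 316 and 333 to 202, 200.3 and 163 CPM (log2 fold change -0.80, SE 0.08, adjusted p = 3.75e-08). The cap ATPase PSMC1 fell from 83.9, 84.9 and 104 to 49.5, 36.7 and 40.9 CPM and PSMD12 from 155, 158 and 166 to 100.2, 103 and 94.1 CPM. Among chaperonin and cytosolic folding genes, 16 of 20 were lower and none was higher. The chaperonin subunits TCP1 and CCT5, which fold actin and tubulin, fell from 367, 385 and 380.3 to 226, 220.2 and 238 CPM (log2 fold change -0.73, SE 0.07, adjusted p = 1.03e-08) and from 589.9, 594 and 616 to 363, 355 and 382 CPM, and the HSP90 partner FKBP4 from 110.3, 113 and 133 to 74.9, 60.9 and 71.2 CPM. Endoplasmic reticulum folding genes had 22 of 39 lower and 4 higher. HSP90B1, the chaperone of that compartment, fell from 1079, 1069 and 886 to 663, 713 and 674 CPM, and SSR3, of the complex beside the protein channel, from 399, 416 and 384 to 262, 282 and 283 CPM. Its partner SSR4 rose from 317, 347 and 373 to 514, 461 and 514 CPM (log2 fold change 0.52, SE 0.08, adjusted p = 7.36e-06), so members of 1 complex moved in opposite directions. The other 3 that rose were ATF6, XBP1 and SEC11A, with log2 fold changes of 0.23, 0.25 and 0.30.

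Mitochondrial genes of the nucleus fell broadly. The mitochondrial ribosome had 52 of 70 genes lower and none higher in edgeR (1 at an unadjusted p below 0.05, 0 in DESeq2 and 1 in limma-voom), with a median of -0.46. MRPS12 fell from 229, 227 and 245 to 146, 133 and 130.4 CPM (log2 fold change -0.78, SE 0.08, adjusted p = 1.5e-08), MRPL37 from 212, 216 and 229.9 to 122, 127 and 139 CPM and MRPL3 from 194, 190.4 and 197 to 107, 124 and 113 CPM. These decreases stand beside the rise of MT-RNR2, the RNA of the same ribosome. Respiratory complex I and its assembly factors had 21 of 41 lower and 1 higher, NDUFB11 (0.24 on the log2 scale), and the nuclear subunits of complexes II to V 24 of 39 lower and 1 higher, COX6B1 (0.28). CYCS, the electron carrier cytochrome c, fell from 346, 277 and 295 to 122, 129 and 107 CPM (log2 fold change -1.36, SE 0.10, adjusted p = 5.47e-11). The membrane rotor genes of ATP synthase ATP5MC3 and ATP5MC1 fell from 806, 836 and 760.2 to 365, 434 and 428 CPM and from 392, 388 and 437 to 226, 189 and 230 CPM. For all 3, every treated library lay below every DMSO library, as the rule of choice required.

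Import and the citric acid cycle followed. Of 31 import and protease genes, 21 were lower and 1, SPG7 (0.55), was higher. HSPA9, the motor chaperone that pulls proteins into the matrix, fell from 237, 244 and 245 to 129, 131 and 124 CPM (log2 fold change -0.92, SE 0.08, adjusted p = 1.31e-09), its exchange factor GRPEL1 from 77.4, 71 and 79.8 to 36.7, 32.8 and 34.7 CPM and the anchor TIMM44 from 155, 158 and 171 to 85.8, 98.5 and 92 CPM, so that 3 parts of the same motor fell together. Of 26 citric acid cycle genes 16 were lower and 3 higher (IDH2, IDH3G and PDK2, at 0.30, 0.52 and 0.79 on the log2 scale). SUCLG2, a subunit of succinyl-CoA ligase, fell from 37.9, 32.6 and 30 to 10.2, 13.1 and 10.3 CPM (log2 fold change -1.59, SE 0.15, adjusted p = 3.25e-09), DLAT of pyruvate dehydrogenase from 108, 109 and 95.4 to 56.3, 55.7 and 55 CPM and the citrate lyase ACLY from 219, 221 and 224 to 141, 143 and 155 CPM. Fatty acid oxidation moved less uniformly, with 8 of 26 lower and 2 higher. Its lower share of 30.8% is close to the 30.2% of all genes from 30 to 100 CPM, the band of the list's median level. The acyl-CoA synthetase ACSL4 fell from 270.4, 272 and 259 to 126, 149 and 142 CPM, and the peroxisomal thiolase ACAA1 rose from 29.7, 34.6 and 39.7 to 62.4, 58.6 and 58.9 CPM (log2 fold change 0.79, SE 0.12, adjusted p = 8.24e-06).

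Among biosynthetic pathways, none of the 32 purine and pyrimidine genes was called higher by edgeR (1 at an unadjusted p below 0.05, 0 in DESeq2 and 1 in limma-voom) and 26 were lower. GART, which carries out several steps of purine synthesis, fell from 339, 340.2 and 326 to 219, 201 and 199 CPM (log2 fold change -0.70, SE 0.08, adjusted p = 6.4e-08). The nucleoside diphosphate kinase NME4 fell from 354, 335 and 375 to 223, 210.4 and 200.5 CPM. Serine and one-carbon metabolism, which feeds that pathway, had 9 of 21 lower and 1 higher, PHGDH (19.2 ± 0.457 to 37.6 ± 2.05 CPM). The mitochondrial folate enzymes MTHFD2 and MTHFD1L fell from 170.3, 152 and 145 to 70, 86.8 and 88.5 CPM (log2 fold change -0.92, SE 0.09, adjusted p = 1.64e-08) and from 37.4, 33.4 and 40.4 to 12.5, 20.7 and 18.2 CPM. DNA replication genes leaned the same way, with 27 of 42 lower and 2 higher (RFC1 and POLD3, at 0.26 and 0.70 on the log2 scale). FEN1, the flap nuclease of the lagging strand, fell from 178, 185 and 169 to 99.3, 108 and 111 CPM, the licensing inhibitor GMNN from 166, 168 and 152 to 91.9, 96 and 109 CPM, and MCM4 of the replicative helicase from 281, 275 and 321 to 186, 185 and 201 CPM (log2 fold change -0.61, SE 0.08, adjusted p = 2.11e-06).

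Heme and iron genes fell with the erythroid markers given above. All 11 heme synthesis genes called, of 13 tested, were lower. UROD fell from 515, 566 and 616 to 361, 315 and 345 CPM (log2 fold change -0.73, SE 0.08, adjusted p = 1.3e-07), CPOX from 56.2, 47.2 and 32.2 to 7.75, 13.6 and 10.4 CPM, and ALAS2, the erythroid form of the first enzyme, from 18.3, 18.4 and 24.1 to 5.48, 5.95 and 9.57 CPM. Among iron genes 10 of 23 were lower and 2 higher. The transferrin receptor TFRC fell from 1074, 1123 and 1163 to 343, 377 and 411 CPM (log2 fold change -1.57, SE 0.10, adjusted p = 2.66e-11), the mitochondrial iron importer SLC25A37 from 439.6, 418 and 480.5 to 188, 170.5 and 184 CPM, and BLVRB, a biliverdin reductase, from 543, 496 and 481 to 117, 97.9 and 85.3 CPM. The 2 that rose were HMOX2 and the iron exporter SLC40A1, with log2 fold changes of 0.33 and 0.52. The part of the erythroid share in these decreases was not tested.

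Redox genes leaned downward: 21 of 34 were lower and 6 higher. GSTM3, a glutathione transferase, fell from 90.2, 87.8 and 98.1 to 49, 35.3 and 42.2 CPM (log2 fold change -1.12, SE 0.10, adjusted p = 5.6e-09), whereas the glutathione peroxidase GPX1 rose from 124, 128 and 146 to 243, 233 and 239 CPM (log2 fold change 0.84, SE 0.08, adjusted p = 9.13e-09). Fatty acid and phospholipid synthesis had 12 of 31 lower and 4 higher. The elongase ELOVL6 fell from 206, 184 and 181 to 58, 64.9 and 53.7 CPM (log2 fold change -1.70, SE 0.09, adjusted p = 1.24e-13), the desaturase FADS1 from 191, 194 and 206 to 109, 95 and 104 CPM and the sterol sensor partner INSIG1 from 59.3, 55.9 and 49.5 to 17.8, 26.1 and 22 CPM. The 4 that rose were DGAT1, AGPAT1, LPIN1 and LPCAT2, at log2 fold changes of 0.41 to 0.70. Sphingolipid enzymes were the metabolic list that leaned upward, 9 of 27 higher and 5 lower. SPTLC2, of the enzyme that starts the pathway, rose from 109, 113 and 119.7 to 217, 197 and 188 CPM (log2 fold change 0.82, SE 0.08, adjusted p = 1.47e-08), and SGMS2, which makes sphingomyelin, from 0.351, 0.67 and 1.07 to 11.7, 18 and 15.6 CPM. SGMS2 reached the filter's minimum of 1.67 CPM only in treated WT libraries, so it adds no support to the count of its list. The 5 lower were SGMS1, UGCG, ASAH1, SPHK1 and B4GALT6, with SPHK1 the lowest at -1.22 on the log2 scale.

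Polyamine genes had 8 of 15 lower and 2 higher, and the pair that rose acts against polyamines. OAZ2, an antizyme that targets ornithine decarboxylase for degradation, rose from 93.4, 74.9 and 85.2 to 328, 309 and 265 CPM (log2 fold change 1.83, SE 0.11, adjusted p = 4.91e-11), and SAT1, which acetylates polyamines for export, from 152, 136 and 136 to 212, 207 and 222 CPM. The synthase SRM fell from 155, 159 and 177 to 117, 88.1 and 110.1 CPM (log2 fold change -0.64, SE 0.09, adjusted p = 5.26e-06). ODC1, the decarboxylase itself, fell from 374 ± 65.5 to 204 ± 41.3 CPM (log2 fold change -0.88), named after its values were seen.

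The cell surface was the area with most increases. Of 28 adhesion molecules and selectin ligands 15 were higher and none was lower in edgeR (1 at an unadjusted p below 0.05, 0 in DESeq2 and in limma-voom), with a median of 0.41. CD44, the hyaluronan receptor, rose from 103, 103 and 81.5 to 379, 399 and 369 CPM (log2 fold change 1.99, SE 0.09, adjusted p = 7.57e-15). ALCAM rose from 20.4, 20.5 and 23 to 101, 97.5 and 103 CPM and the leukocyte adhesion molecule ICAM3 from 154, 132 and 160.4 to 369.8, 297 and 320.2 CPM. Every treated library of these genes lay above every DMSO library, as the rule of choice required. Integrin and focal adhesion genes had 10 of 27 higher and 4 lower. The alpha subunit ITGA9 rose from 15.6, 17.4 and 16.3 to 105, 110.2 and 92.4 CPM (log2 fold change 2.63, SE 0.12, adjusted p = 1.9e-14), whereas ITGA4, which can pair with the same beta chain, fell from 532, 482 and 515 to 219, 211 and 234 CPM (log2 fold change -1.20, SE 0.08, adjusted p = 1.01e-11). The adaptor FYB1 rose from 32, 29.7 and 30.9 to 81.5, 71 and 84.1 CPM. The other 3 lower were ITGB3, VCL and PARVB, at -1.29, -0.43 and -0.39 on the log2 scale.

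Immune receptors rose in part. Lectin, Fc, LILR and SIGLEC receptors had 13 of 25 higher and 3 lower, with a median of 0.52. The antibody salvage receptor gene FCGRT rose from 55.1, 52.1 and 55.2 to 157, 142 and 139 CPM (log2 fold change 1.43, SE 0.10, adjusted p = 7.42e-11) and the myeloid receptor CD33, also 1 of the 8 blast markers above, from 50.6, 57.9 and 58.4 to 130.5, 102 and 124 CPM. FCGR2B, an inhibitory Fc receptor, rose from 1.23, 0.402 and 1.07 to 15.7, 16.3 and 19.2 CPM. Its DMSO libraries all lay below the filter's minimum of 1.67 CPM, and its insR values are not given here. It is therefore not taken as support for the count of its list. The members that fell were CLEC1B, FCGR2A and LGALS12. FCGR2A went from 14 ± 0.86 to 6 ± 1.43 CPM, while CLEC1B averaged 1.23 and LGALS12 3.21 CPM in DMSO, and LGALS12 had no read in treated cells. Innate sensors had 12 of 29 higher and 5 lower. The DNA sensor AIM2 rose from 7.9, 10.3 and 12 to 39.3, 30.9 and 37 CPM (log2 fold change 1.83, SE 0.19, adjusted p = 1.72e-08), the inflammasome gene NLRP1 from 7.72, 4.29 and 5.72 to 22.9, 19.6 and 20.3 CPM and the pore-forming GSDMD from 22.6, 26 and 29.5 to 65, 42.4 and 52.4 CPM. CASP1, the protease that these sensors activate, fell from 4.08 ± 0.783 to 0.683 ± 0.104 CPM (log2 fold change -2.52), and the others that fell were TICAM1, TRAF3, NLRC5 and TBK1.

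NADPH oxidase and phagocytosis genes had 9 of 18 higher and 2 lower (PROS1 and TYRO3, at -1.21 and -0.53 on the log2 scale). STAB1, a scavenger receptor, rose from 14, 11.7 and 13.9 to 132, 118 and 114 CPM (log2 fold change 3.21, SE 0.14, adjusted p = 6.89e-15), the complement regulator CFP from 24.6, 29.5 and 32.7 to 80, 55.1 and 72.6 CPM and the receptor kinase AXL from 30.9, 33.9 and 39.1 to 69.8, 59.1 and 71.7 CPM. Myeloid granule genes had 5 of 10 tested higher and 1 lower. Among them CST3 rose from 27, 34.2 and 44.7 to 86.8, 73 and 79.8 CPM (log2 fold change 1.18, SE 0.15, adjusted p = 1.42e-06) and LYZ, lysozyme, from 85.1, 94.6 and 70.4 to 109, 134 and 140.1 CPM. SLPI had 3 reads over the DMSO libraries and 65 over the treated ones, a ratio of 20.0 (95% counting interval 6.55 to 99.5). Its DMSO libraries all lay below the filter's minimum of 1.67 CPM, so it is not taken as support for the count either. The other 2 higher were MS4A3 and SERPINB1, and the gene that fell was CST7 (-0.95 on the log2 scale).

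Chemoattractant receptors had 4 of 8 tested higher and 1 lower. CXCR4, which retains cells in marrow, rose from 8.6, 13.3 and 9.29 to 31.8, 37.1 and 34.8 CPM (log2 fold change 1.71, SE 0.19, adjusted p = 6.59e-08), and the leukotriene receptor LTB4R fell from 45.5, 40.9 and 46.3 to 27.4, 24 and 29.5 CPM. FPR1, FPR3 and PTAFR were the other 3 higher, at 1.25, 2.24 and 1.28 on the log2 scale. Cytokine receptors showed no common direction, with 9 of 30 higher and 8 lower but a median of -0.04, which was above 0 with only the 6 WT libraries (0.07), under upper-quartile scaling (0.01), without WT GSK-LSD1 replicate 1 (0.025) and, barely, without WT DMSO replicate 2 (0.000996). IL6R rose from 22.6, 25.9 and 24.3 to 83.6, 82.4 and 75 CPM (log2 fold change 1.72, SE 0.11, adjusted p = 1.45e-11) and IL1RAP from 8.6, 6.3 and 7.5 to 26.5, 26.3 and 26.2 CPM. Class I antigen presentation also split, 4 of 17 higher and 4 lower. HLA-E rose from 109.9, 104 and 111 to 245, 235 and 245 CPM (log2 fold change 1.16, SE 0.08, adjusted p = 1.08e-11), while the peptide transporter gene TAP1 fell from 104, 117 and 117 to 53.3, 53.2 and 59.9 CPM (log2 fold change -1.02, SE 0.10, adjusted p = 6.61e-09). TAPBP and ERAP1 were also higher, and the other 3 lower TAP2, PSME2 and NLRC5. HLA genes have near-identical relatives, so the value of HLA-E is uncertain. S100A6 fell from 1796, 1769.8 and 1328 to 434, 622 and 537 CPM, a larger fall in CPM than that of S100A4, the other abundant decrease of the S100 and annexin list (7 of 16 higher, 3 lower), and S100A16 rose from 29.3, 23.8 and 28.8 to 59, 58.9 and 52.1 CPM. S100A2 was the third lower member, at -1.21 on the log2 scale.

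**Figure D4:**
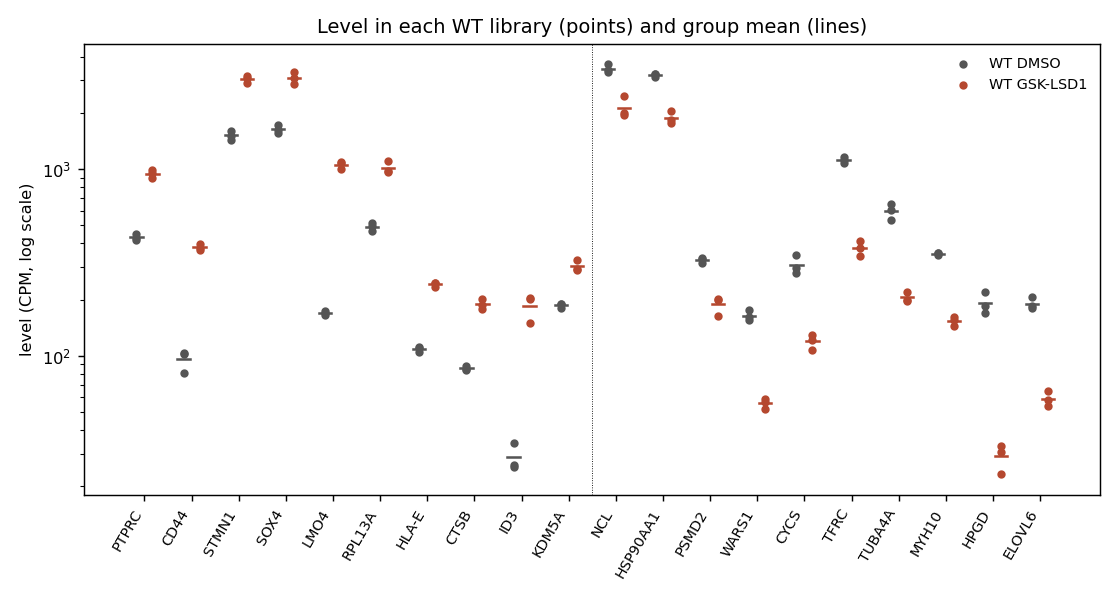
Level of 20 genes of the text in each WT library (points, CPM, log axis) with the group mean (lines), DMSO in grey and GSK-LSD1 in red; genes called higher are left of the dotted line and genes called lower right of it. The 3 treated points lie wholly above or wholly below the 3 DMSO points for each gene, as the choice of these genes required, with the widest treated spread for ID3 on the left.

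Lysosomal genes were called higher more often than lower, and autophagy genes leaned the same way at shares nearer those of all genes. Lysosomal enzyme genes had 17 of 39 higher and 4 lower. Cathepsin B, CTSB, rose from 84.4, 87.9 and 85.4 to 178, 187 and 201 CPM (log2 fold change 1.14, SE 0.08, adjusted p = 2.49e-11) and HEXA, which degrades gangliosides, from 99.4, 98.6 and 98.1 to 190.2, 165 and 178 CPM. SGSH, a heparan sulfate sulfatase, had no read in any DMSO library and 178 reads over the treated ones, at least 54.8-fold higher against a limit of 3 reads over the group. It had no read in any insR library either, so it was tested only because of its reads in the treated WT cells, and it adds no support to the count of its list. The 4 lower were ASAH1, CTSL, PPT1 and PPT2, of which CTSL changed most, from 17.8 ± 5.02 to 3.98 ± 0.395 CPM. Lysosomal membrane and proton pump genes had 13 of 33 higher and 4 lower. The cholesterol carrier NPC2 rose from 69.5, 67.8 and 61.1 to 127, 131 and 127 CPM (log2 fold change 0.95, SE 0.08, adjusted p = 2.31e-09) and LAPTM4B from 140.5, 127 and 133 to 216, 238 and 229.6 CPM. The related regulators of lysosome genes TFEB and MITF, named after their values were seen, moved apart, TFEB from 2.03 ± 0.518 to 4.17 ± 1.2 CPM and MITF from 5.75 ± 0.57 to 2.52 ± 0.818 CPM. The other 3 lower were ATP6AP2, ATP6V0A1 and ATP6V1C1, which encode subunits of the proton pump or its accessory protein.

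Autophagy genes had 11 of 38 higher and 5 lower, shares of 28.9% and 13.2%. Of all genes from 30 to 100 CPM, the band of this list's median level, 23.7% were higher and 30.2% lower. BNIP3L, a receptor for the removal of mitochondria, rose from 104, 106 and 91.6 to 221, 231 and 241 CPM (log2 fold change 1.20, SE 0.08, adjusted p = 2.74e-11), the cargo receptor CALCOCO2 from 82.7, 91.6 and 91.6 to 170, 155 and 173 CPM and the lipid kinase PIK3C3 from 23.9, 20 and 19.3 to 44.8, 39 and 39.7 CPM. BNIP3, the close relative of BNIP3L, fell from 6.99 ± 0.934 to 2.52 ± 0.299 CPM, and the others that fell were ATG3, ATG4A, ATG4D and ATG5. Endosome and RAB genes had 11 of 40 lower and 7 higher, shares of 27.5% and 17.5%. The shares were 22.5% and 22.7% over all genes tested, and 30.2% and 23.7% from 30 to 100 CPM, the band of the list's median level. The changes of lowest p were increases. RAB3D, of secretory granules, rose from 11.1, 14.7 and 14.5 to 46.3, 47.2 and 43.3 CPM (log2 fold change 1.75, SE 0.14, adjusted p = 2.22e-10), RAB37 from 24.8, 29.9 and 28 to 65, 71 and 67 CPM and RAB32 from 16.9, 15.3 and 16.4 to 32.9, 31.3 and 31.9 CPM.

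The cytoskeleton changed in make-up. ARHGAP25, expressed in leukocytes, rose from 14.6, 14.3 and 12.9 to 56, 57.6 and 60 CPM (log2 fold change 2.05, SE 0.13, adjusted p = 2.93e-12). Actin genes split, 13 of 47 higher and 12 lower with a median of -0.15: the capping protein CAPG rose from 21.2, 19.7 and 27.2 to 87.4, 69.5 and 69.6 CPM, whereas the myosin heavy chain MYH10 fell from 356, 353 and 348 to 161, 144 and 156 CPM (log2 fold change -1.19, SE 0.08, adjusted p = 1.5e-11) and ACTN1 from 511, 509 and 492 to 322, 304 and 319 CPM. Tubulin and septin genes had 11 of 21 lower. TUBA4A fell from 535, 604 and 647 to 220.5, 197 and 199 CPM (log2 fold change -1.54, SE 0.08, adjusted p = 3.81e-13) and TUBB1, the platelet beta tubulin, from 7.72, 7.23 and 7.14 to 0.378, 0.768 and 0.713 CPM. STMN1, given above, was 1 of the 4 higher, with SEPTIN6, SEPTIN9 and SEPTIN10 at 0.57, 0.79 and 4.44 on the log2 scale.

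Chromatin genes included many modest increases. Histone demethylases other than LSD1 had 8 of 20 higher and 4 lower. KDM5A and KDM5B, which act on the same histone lysine as LSD1, rose from 189, 179.5 and 191 to 325, 289 and 292 CPM (log2 fold change 0.70, SE 0.08, adjusted p = 9.78e-08) and from 249.8, 233 and 230.2 to 419.7, 361 and 376 CPM, and JMJD1C from 95.9, 89.4 and 89.7 to 135, 161 and 143 CPM. The 4 lower were JMJD6, KDM1B, PHF2 and RIOX2, of which KDM1B, the relative of LSD1, fell from 39.6 ± 4.15 to 23.8 ± 1.23 CPM. Methyltransferases and Polycomb genes had 15 of 40 higher and 10 lower. KMT2E rose from 122, 119 and 130.2 to 207, 212 and 192 CPM and EZH1 from 7.72, 9.38 and 12.7 to 38.2, 29.6 and 27 CPM (log2 fold change 1.66, SE 0.20, adjusted p = 2.44e-07). Its paralog EZH2, named after its values were seen, fell by a smaller step, -0.33 on the log2 scale (adjusted p = 0.0064).

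Acetylation and remodelling were alike. Acetyltransferases and deacetylases had 10 of 34 higher and 6 lower, shares of 29.4% and 17.6%. Of all genes from 30 to 100 CPM, the band of the list's median level, 23.7% were higher and 30.2% lower. In this list HDAC5 rose from 4.92, 4.82 and 4.82 to 18.7, 16.9 and 16 CPM (log2 fold change 1.82, SE 0.22, adjusted p = 3.16e-07) and the coactivator CREBBP from 150.1, 143 and 138 to 239, 229 and 211 CPM. Among SWI/SNF and other remodellers 14 of 37 were higher and 7 lower. The ISWI motor SMARCA1 rose from 10, 12.1 and 9.65 to 37.4, 41.7 and 42.8 CPM (log2 fold change 1.93, SE 0.15, adjusted p = 2.1e-10) and CHD9 from 122, 125 and 116 to 188, 178 and 175 CPM, and the accessory subunit DPF3 fell from 14.2, 17.7 and 18.6 to 7.56, 6.72 and 6.11 CPM. Of 18 DNA methylation genes, 2 were higher: TET2, which oxidises methylcytosine, rose from 43.4, 43 and 38.8 to 78.8, 76.4 and 74.7 CPM (log2 fold change 0.88, SE 0.10, adjusted p = 2.3e-07), and the methyltransferase DNMT3A from 109, 107 and 109.9 to 176, 163 and 166 CPM. Among the 4 lower, GADD45A fell from 55.1, 57.6 and 42.3 to 39.1, 35.9 and 32.7 CPM, and DNMT1, IDH1 and MBD1 had log2 fold changes of -0.21, -0.63 and -0.49. In homologous recombination and Fanconi genes 9 of 33 were lower (27.3%, against 30.2% of all genes from 30 to 100 CPM, the band of the list's median level). The damage kinase ATM rose from 44.8, 37.1 and 43.8 to 78.7, 76 and 73.7 CPM (log2 fold change 0.86, SE 0.10, adjusted p = 2.54e-07). BARD1 and BRIP1 were the other 2 higher, at 0.31 and 0.40 on the log2 scale. The other repair list had 11 of 31 lower and 5 higher, which were APEX1, POLB, SMUG1, MPG and ERCC5.

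In signalling, TGF-beta and BMP genes had 14 of 30 higher and 4 lower, with a median of 0.48. The target genes ID3 and ID2, inhibitors of helix-loop-helix factors, moved apart: ID3 rose from 26.2, 34.2 and 25.5 to 150.3, 201 and 203 CPM (log2 fold change 2.68, SE 0.13, adjusted p = 2.54e-13) and ID2 fell from 176, 203 and 229.9 to 102, 101 and 103 CPM (log2 fold change -0.99, SE 0.09, adjusted p = 1.93e-09). The Smad corepressor SKIL rose from 29.7, 24.7 and 28.4 to 66.2, 60.1 and 56.3 CPM. The other 3 lower were ID1, LTBP1 and GDF11, and ID1 was at -0.98 on the log2 scale. PI3K, AKT and mTOR genes had 17 of 39 higher and 5 lower. The sestrin SESN3, an inhibitor of mTORC1, rose from 93.2, 96.9 and 79.8 to 230.3, 256 and 245 CPM (log2 fold change 1.44, SE 0.09, adjusted p = 7.75e-12) and FOXO1, a factor held out of the nucleus by AKT, from 68.8, 72.7 and 74.3 to 177, 161 and 167 CPM, while RRAGD, a GTPase that helps to activate mTORC1, fell from 77.2, 75.8 and 78.4 to 38.4, 34.6 and 40.4 CPM. The others that fell were PIK3CB, INPP4B, AKT2 and MLST8.

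Of 38 RAS-MAPK genes 9 were lower, a share of 23.7% that is close to the 22.5% of all genes tested, and 3 were higher, with a median of -0.07. Its transcriptional targets ETV4 and DUSP2 fell from 11.6, 11.8 and 12 to 2.84, 0.96 and 2.04 CPM (log2 fold change -2.57, SE 0.26, adjusted p = 5.32e-09) and from 13.2, 13.5 and 11.1 to 3.78, 4.03 and 3.26 CPM, and the exchange factor SOS2 rose from 50.2, 45.3 and 50.5 to 75.1, 85.8 and 80.4 CPM. RASGRP3 and DUSP10 were the other 2 higher, at 0.97 and 1.41 on the log2 scale. The proximal adaptors were mixed, 12 of 33 higher and 8 lower, and their median of 0.17 became -0.04 without WT DMSO replicate 2. CBLB, a ubiquitin ligase that dampens receptor signalling, rose from 9.66, 10.6 and 13.9 to 88.1, 103 and 107 CPM (log2 fold change 3.13, SE 0.15, adjusted p = 1.26e-14). The phosphatase PTPRC, known as CD45, rose from 427, 419 and 447 to 989, 894 and 952 CPM (log2 fold change 1.13, SE 0.07, adjusted p = 1.07e-11) and the adaptor GAB2 from 54.1, 48.9 and 63.1 to 177, 147 and 144 CPM.

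Receptors coupled to G proteins and their regulators had 15 of 36 higher and 8 lower. S1PR1, the receptor that guides cells out of tissue, rose from 5.27, 5.49 and 4.47 to 39.3, 52.4 and 47.1 CPM (log2 fold change 3.18, SE 0.20, adjusted p = 2.29e-12) and the G protein subunit GNG11 from 7.37, 10.7 and 5 to 65.6, 63.9 and 68.5 CPM, while the prostaglandin receptor PTGER3 fell from 79, 82.3 and 78.9 to 17.8, 25 and 25.5 CPM. Second messenger genes had 15 of 40 higher and 4 lower. The calcium release channel ITPR2 rose from 145, 133 and 163 to 507, 432 and 494 CPM (log2 fold change 1.70, SE 0.09, adjusted p = 2.14e-13), and the phosphodiesterase PDE7A fell from 78.5, 80.3 and 87.3 to 42.9, 46.7 and 41 CPM, as did ADCY3, PDE4A and PRKCD. Notch and Wnt genes had 8 of 31 higher and 2 lower, shares of 25.8% and 6.45%. The higher share is near the 23.7% of all genes from 10 to 30 CPM, the band of the list's median level. The lower share in that band was 19.1%. TCF7L2 rose from 10, 9.24 and 7.68 to 24.6, 27.5 and 21.8 CPM, TLE4 from 14.4, 9.11 and 8.22 to 32.7, 34 and 29.3 CPM and NOTCH1 from 22.6, 23.6 and 24.8 to 38, 54.3 and 51.2 CPM (log2 fold change 1.02, SE 0.14, adjusted p = 2.3e-06). The 2 lower were HES6 and FZD5.

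Regulators of death, division and transcription completed the lists. BCL2 family and death receptor genes had 13 of 34 higher and 4 lower. The death ligand TNFSF10, known as TRAIL, rose from 55.1, 59.8 and 51.1 to 160.3, 145 and 166 CPM (log2 fold change 1.50, SE 0.11, adjusted p = 4.88e-11), and so did CFLAR, which blocks death receptor signals (193 ± 11.2 to 315 ± 18.6 CPM, SD, n = 3), so genes of opposite effect were among the increases. The 4 lower were BCL2L1, MCL1, PMAIP1 and TNFRSF10A, again of both kinds. BTG1, an antiproliferative gene, rose from 78.3, 65.2 and 67 to 225, 218 and 215 CPM (log2 fold change 1.65, SE 0.09, adjusted p = 4.8e-13) and CDK6 fell from 762, 740 and 616 to 423, 526 and 487 CPM, in a list with 6 of 28 higher and 8 lower. Immediate early factors had 4 of 23 higher and 5 lower, and the related AP-1 genes FOSL2 and FOSL1 moved apart, FOSL2 from 46.2, 45.4 and 41.3 to 141, 152 and 129 CPM and FOSL1 from 10.7, 11.5 and 11.4 to 5.67, 3.84 and 3.26 CPM. JUN, IER2 and KLF6 were the other 3 higher and JUNB, EGR1, IER3 and BATF the other 4 lower. In the IRF and STAT list (10 of 20 higher, 2 lower) STAT6 rose from 36.3, 33.5 and 34.1 to 66.6, 55.5 and 56.2 CPM (log2 fold change 0.78, SE 0.11, adjusted p = 2.98e-06). PIAS3, an inhibitor of STAT signalling, was lower, at -0.39 on the log2 scale.

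Nuclear receptors had 6 of 22 higher and 6 lower. Their median of 0.10 was below 0 without WT DMSO replicate 3 (-0.06), without WT GSK-LSD1 replicate 2 (-0.09), without both libraries that deviated together (-0.08) and with no count filter (-0.02). RXRA, the common partner of these receptors, rose from 39.7, 45.4 and 47.9 to 116, 101 and 115 CPM (log2 fold change 1.32, SE 0.10, adjusted p = 3.03e-10). The list of HOX, MEIS and homeobox genes also holds the cofactor genes LMO4, LMO2 and LDB1, which are not homeobox genes. It had 13 of 33 higher and 3 lower. The cofactor LMO4 rose from 174, 169 and 166 to 1003, 1076 and 1091 CPM (log2 fold change 2.64, SE 0.07, adjusted p = 5.52e-18), the lowest p of any gene in the functional lists. SATB1, a chromatin organiser, rose from 35.3, 38.5 and 36.4 to 97.6, 100 and 107 CPM and HOXB7 from 8.08, 11 and 10.7 to 44.2, 40.3 and 42.5 CPM. LDB1 and LMO2, which build the same kind of complex as LMO4, were among the 3 that fell, from 36.8 ± 11.3 to 13.5 ± 4.89 CPM and 216 ± 42.2 to 101 ± 25.2 CPM, and the third was HOXA4.

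Outside the lists, the genes of lowest p in each band of level were of mixed function. Below 3 CPM, HLA-DOA, a chaperone of class II antigen loading, had no read in DMSO and 101 in treated libraries, at least 31.1-fold higher against 3 reads over the group, and it too passed the filter on the treated WT libraries alone. CRHBP went from 1 read to 115, a ratio of 106 (95% counting interval 18.7 to 4230). CR2, a complement receptor, fell from 4.21, 3.08 and 5.89 to 0.189, 0 and 0.407 CPM and PAPPA, a metalloproteinase, from 4.21, 4.56 and 3.39 to 0.189, 0 and 0.407 CPM. With so few reads the direction is plain, but the size of each fold is loosely bounded. From 3 to 10 CPM, MDFIC rose from 0.878, 1.07 and 0.536 to 14, 17.3 and 14.3 CPM (log2 fold change 4.12, SE 0.36, adjusted p = 3.9e-11), C19orf38 from 0.527, 1.07 and 0.536 to 18.9, 14 and 15 CPM and the neurotrophin receptor NTRK3 from 1.05, 0.67 and 0.357 to 13.8, 12.7 and 13 CPM, and the hedgehog ligand DHH fell from 16.7, 11.8 and 12 to 0.378, 1.15 and 0.916 CPM (log2 fold change -3.97, SE 0.38, adjusted p = 7.49e-11) and the platelet collagen receptor GP6 from 15.6, 15.8 and 15 to 2.84, 1.15 and 1.73 CPM. Among WT libraries only treated ones reached the filter's minimum of 1.67 CPM for CRHBP, MDFIC, C19orf38 and NTRK3. Only DMSO ones did for CR2, PAPPA and DHH. The insR values of these genes are not given here, so they are no support for the direction of their bands.

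At 10 to 30 CPM the endothelial and hematopoietic factor SOX7 rose from 1.05, 0.67 and 0.714 to 39.3, 34 and 36.4 CPM (log2 fold change 5.48, SE 0.34, adjusted p = 5.16e-15). SOX7 lay below the filter's minimum of 1.67 CPM in every DMSO library, so it is no support for the direction of its band. At 30 to 100 CPM the growth factor gene GDF3 rose from 10.4, 11.5 and 11.6 to 103, 103 and 87.7 CPM, and at 100 to 300 CPM the cytoskeletal SPTAN1 from 42.3, 38.2 and 44.3 to 273, 248 and 248 CPM and GFI1, a repressor that recruits LSD1, from 13.5, 16.3 and 19.5 to 185, 175 and 192 CPM (log2 fold change 3.48, SE 0.12, adjusted p = 1.33e-16). The decreases of that band included UBASH3B, a phosphatase, from 482, 503 and 414 to 84.9, 91.8 and 96.2 CPM and HPGD, which degrades prostaglandins, from 185, 169 and 219.5 to 33.1, 23.2 and 30.8 CPM (log2 fold change -2.71, SE 0.11, adjusted p = 2.56e-15). At 300 CPM and over RFLNB, a filamin-binding protein gene, rose from 77.2, 81.3 and 63.1 to 547, 629 and 590.5 CPM (log2 fold change 2.99, SE 0.09, adjusted p = 1.06e-17), the kinase TAOK3 from 367, 357 and 359.7 to 1047, 955 and 958 CPM and SPTBN1 from 263, 257 and 290.4 to 846, 735 and 769 CPM. SPTAN1 and SPTBN1 encode the 2 chains of non-erythroid spectrin and rose together, while the erythroid anchor ANK1 fell from 532, 500.1 and 430.5 to 97.9, 133 and 107 CPM (log2 fold change -2.11, SE 0.10, adjusted p = 1.61e-14).

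Non-coding genes leaned upward. Of 731 long non-coding RNA genes tested 192 were higher and 49 lower, with a median log2 fold change of 0.30, and of 538 pseudogenes 84 were higher and 29 lower. Protein-coding genes numbered 11297, with 2559 higher and 2789 lower. Since non-coding genes are weakly expressed, the same count was made from 3 to 10 CPM: 29.1% of 258 long non-coding genes were higher and 4.65% lower there, against 22.0% and 13.8% of 1964 protein-coding genes. Reads outside any annotated gene moved with this, at 16.3% to 16.7% of uniquely aligned reads in DMSO and 18.4% to 19.5% in treated libraries, and their part in the result was not tested. MEG3, an imprinted RNA, rose from 49.9, 44.1 and 61.5 to 109, 111 and 106 CPM (log2 fold change 1.08, SE 0.12, adjusted p = 6.31e-08). The divergent transcript CEBPA-DT, which starts beside the myeloid factor gene CEBPA, rose from 1.41, 1.21 and 0.715 to 9.07, 9.41 and 11.5 CPM, and CASC15 from 4.39, 5.22 and 5.89 to 15.5, 19 and 22.1 CPM. CEBPA-DT lay below the filter's minimum of 1.67 CPM in every DMSO library, so it is no support for a direction. Those that fell included SNHG17, a snoRNA host, from 40.9, 48.2 and 42.1 to 18.3, 22.5 and 24.6 CPM, the imprinted H19 from 36, 34.8 and 39.6 to 16.3, 17.3 and 15.2 CPM, and TERC, the RNA template of telomerase, from 19.1, 20.9 and 30.4 to 10.2, 8.26 and 12.1 CPM (log2 fold change -1.17, SE 0.20, adjusted p = 3.88e-05). These 6 were named after their values were seen, and whether the counting used strand is not given, so reads of overlapping partners cannot be told apart.

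Promoters of the genes were compared by their content of the dinucleotide CG, which is dense at promoters of widely used genes and sparse at many tissue-restricted ones. RefSeq promoter windows (build GRCh38.p14, 250 bases before to 50 after the start) matched 9255 of 11297 protein-coding genes tested. In windows with 0 to 4 CG, 34.9% of 487 genes were called higher and 20.3% lower, and with 5 to 9 CG 34.2% of 515 and 17.3%. With 20 to 29 CG the shares were 18.5% higher and 27.1% lower of 3068 genes, and with 30 and over 22.0% and 25.9% of 3638. Genes with few CG were also at lower levels, with a median of 14.8 CPM against 31.8 CPM for the richest class. Among genes of 10 to 100 CPM alone, a check added after seeing the data, 37.9% of the 243 genes with 0 to 4 CG were higher and 18.5% lower, against 19.0% and 27.2% of 1779 genes with 20 to 29 CG. With 30 and over CG the shares at these levels were 22.9% and 26.4% of 2117 genes. Direction thus differed with promoter CG content at matched levels as well, as a description with no test.

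**Figure D5:**
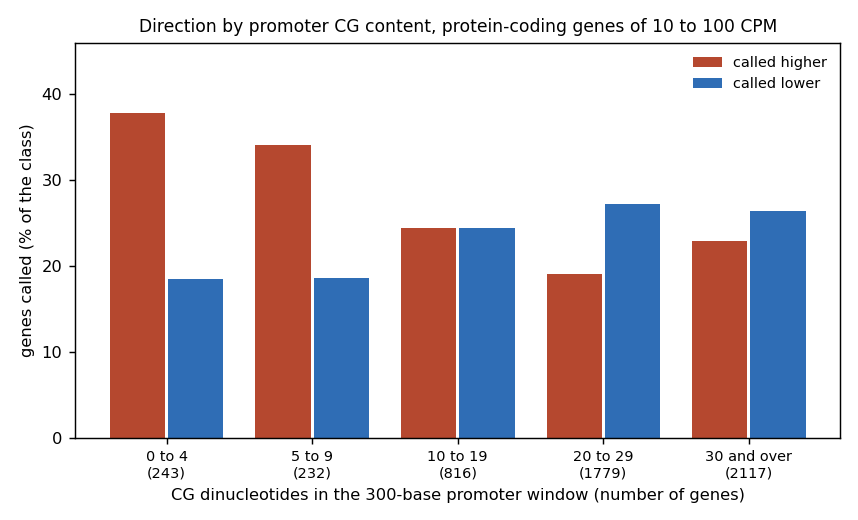
Share of protein-coding genes of 10 to 100 CPM called higher (red) or lower (blue) after GSK-LSD1 in WT cells, in percent, by the number of CG dinucleotides in the promoter window; the number of genes per class is in parentheses. Higher calls fall from 37.9% with 0 to 4 CG to 19.0% with 20 to 29 CG, and lower calls go from 18.5% to 27.2%. With 30 and over CG they are 22.9% and 26.4%, so the change is not steady over the classes.

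Promoters of 5 genes are printed as examples, chosen after their changes and CG counts were seen. They do not stand for every gene of their class: 802 genes with 30 and over CG were higher and 99 with 0 to 4 CG were lower. The following are the 250 bases before the start, 5′ to 3′ on the gene's strand, with each CG in capitals, first for 3 genes that rose and then for 2 that fell. PTPRC has 1 CG in the shown bases (chr1:198638790-198639039, plus strand) and ARHGAP25 1 (chr2:68734561-68734810, plus strand). CD33 has 2 (chr19:51224830-51225079, plus strand), WARS1 37 (chr14:100376328-100376577, minus strand) and PSMD2 33 (chr3:184298991-184299240, plus strand).
PTPRC: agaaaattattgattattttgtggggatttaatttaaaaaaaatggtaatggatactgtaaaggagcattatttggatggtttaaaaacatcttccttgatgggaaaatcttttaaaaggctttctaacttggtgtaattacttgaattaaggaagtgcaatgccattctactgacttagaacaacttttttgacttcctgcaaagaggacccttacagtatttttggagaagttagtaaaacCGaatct
ARHGAP25: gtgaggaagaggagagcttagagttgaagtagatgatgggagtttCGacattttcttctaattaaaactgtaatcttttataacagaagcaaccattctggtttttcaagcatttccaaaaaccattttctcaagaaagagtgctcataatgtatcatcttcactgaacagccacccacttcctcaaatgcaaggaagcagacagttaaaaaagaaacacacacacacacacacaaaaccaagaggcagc
CD33: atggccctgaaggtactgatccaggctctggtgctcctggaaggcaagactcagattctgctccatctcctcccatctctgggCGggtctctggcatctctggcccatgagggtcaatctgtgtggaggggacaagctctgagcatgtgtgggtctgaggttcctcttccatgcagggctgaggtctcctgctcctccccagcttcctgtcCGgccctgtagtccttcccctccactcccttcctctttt
WARS1: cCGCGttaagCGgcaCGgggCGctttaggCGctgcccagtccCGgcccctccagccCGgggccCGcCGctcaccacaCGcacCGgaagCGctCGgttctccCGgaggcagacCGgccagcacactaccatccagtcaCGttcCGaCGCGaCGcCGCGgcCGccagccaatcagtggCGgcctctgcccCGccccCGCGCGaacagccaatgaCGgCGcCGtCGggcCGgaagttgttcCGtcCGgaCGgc
PSMD2: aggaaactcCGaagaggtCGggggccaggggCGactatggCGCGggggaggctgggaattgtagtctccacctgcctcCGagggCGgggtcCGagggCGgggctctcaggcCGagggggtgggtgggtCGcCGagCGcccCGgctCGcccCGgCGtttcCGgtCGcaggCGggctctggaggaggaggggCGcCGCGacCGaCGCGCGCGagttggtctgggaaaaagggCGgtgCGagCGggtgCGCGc
The bases G and C made up 31.2% of the PTPRC stretch, 38.4% of ARHGAP25 and 58.8% of CD33, against 73.6% of WARS1 and 74.4% of PSMD2.

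Short motifs of known factors were searched on both strands of the same windows. Only 692 of the 997 genes higher by at least 2-fold (69.4%) and 399 of the 560 lower (71.2%) had a window, under 80%, so this comparison is void as a check of the sets and describes the matched promoters alone. AATCAC, the centre of the GFI1 recognition sequence, was in 10.3% of the higher, 8.27% of the lower and 7.42% of all 9614 windows. The motif AGATAA, bound by factors of the family that includes GATA1, was in 7.80%, 9.27% and 5.20%, but in 5.27% of all genes called lower without a fold limit. The E box CACGTG was in 6.94%, 9.52% and 10.2%, and the NRF1 motif in 0.72%, 1.25% and 2.41%. AATCAC and AGATAA hold no CG, while the E box and the NRF1 motif do. The cyclic AMP element TGACGTCA was in 1.88%, 2.00% and 3.41%, and the PU.1 motif GAGGAAGT in 3.03%, 1.75% and 2.63%. For the RUNX motif TGTGGT the shares were 10.4%, 9.52% and 9.19%, and for the CCAAT box ATTGG 35.3%, 38.1% and 37.5%. The sterol, interferon and ATF4 elements were each in 3% or fewer of these sets. A match is a string of letters, not a bound site.

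The last question was whether the modest changes of abundant genes differed between the WT and insR cells. In DMSO, KDM1A averaged 265 CPM in WT and 109 CPM in insR cells, so the cells also differ in KDM1A RNA. The insertion cannot be told apart from other differences between the cells. The test was the difference in response, insR minus WT, in which 25.1% of the genes tested (3228) were called. All 3 of the largest modest gains and all 3 of the largest modest losses were among them. They were chosen by their WT change, which favours a call here, so the share over all genes is not a matched background. STMN1 was at 1633, 1644 and 1663 CPM in insR DMSO and 1982, 1948 and 1904 CPM in insR GSK-LSD1, a difference in log2 response of -0.76 (adjusted p = 6.49e-06). SOX4 was at 905, 839.8 and 725 and 923, 875 and 1059 CPM (-0.70, adjusted p = 0.000235). MT-RNR2 was at 17606, 16321 and 17199 and 14423, 15795 and 18249 CPM (-0.68, adjusted p = 0.000564). Their insR libraries overlapped between treatments for MT-RNR2 and SOX4 and did not for STMN1, whose treated values lay above DMSO by less than in WT cells. NCL was at 3531, 3209 and 3209 and 3532, 3062 and 3505 CPM (0.72, adjusted p = 0.000168). HSP90AA1 was at 3734, 3561 and 3592 and 3572, 3276 and 3776 CPM (0.73, adjusted p = 3.12e-05), and U2AF1 at 4795, 4839 and 5843 and 5719, 5168 and 4963 CPM (0.42, adjusted p = 0.0222). For these 3 the insR libraries of both treatments overlapped. The DMSO and treated WT values that enter this test are the same as in the WT response, so neither the calls nor the signs of the differences are separate evidence.

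The spread within the WT groups was small for most genes. The SD of log2(CPM + 1) over 3 replicates had a median of 0.16 in both WT groups. Among 8659 genes of at least 10 CPM it passed 1 in 6 genes in DMSO and 8 in treated cells. The widest in DMSO were AQP3 (87.8, 71.8 and 10.9 CPM), PPP4C (14.9, 18.8 and 2.5 CPM), TXN (70.9, 78 and 17.1 CPM) and the pseudogene RPL23AP55, and all of them were lowest in replicate 3. The widest in treated cells were NCSTN (1.89, 25.7 and 12.7 CPM), LLGL1 (4.16, 30.5 and 21.4 CPM), GNB2 (9.26, 49.2 and 23.3 CPM) and DUSP7 (3.4, 17.9 and 10.8 CPM), and all of them were lowest in replicate 1. Of these 8 genes AQP3 and TXN were called. TXN, which encodes thioredoxin, was at 8.32, 24.4 and 14.4 CPM in treated cells (log2 fold change -1.85, adjusted p = 0.044). Its call was lost without WT DMSO replicate 1 (adjusted p = 0.111), WT DMSO replicate 2 (0.138), WT GSK-LSD1 replicate 1 (0.124) or WT GSK-LSD1 replicate 3 (0.126), and also in limma-voom (0.118), with only the 6 WT libraries (0.120) and with no count filter (0.0851). Its log2 fold change lay between -1.87 and -1.51 under these settings.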

How the data were processed

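RNA of 12 SET-2 samples was sequenced from transcript ends with the QuantSeq 3′ FWD kit, per the labels' protocols. Whole reads were counted per gene by the authors, and the counts were deposited unscaled; they were made with bcl2fastq 2.2, STAR 2.6.0c, HTSeq 0.9.1 and hg19, per the submitters' processing notes, which also name DESeq2; neither the annotation release nor the strand setting is stated in those notes or labels. Entries that name no gene were left out of library sizes; in the WT libraries ambiguous reads were 1.68% to 1.84% of uniquely aligned reads, and entries of reads not aligned uniquely made up 57.9% to 61.2% of the table total.

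Counts of all 12 libraries were fitted by group in edgeR 4.0.16 (R 4.3.3) with TMM scaling, filterByExpr and the robust quasi-likelihood test, and p-values were adjusted by Benjamini-Hochberg over 12864 genes with a threshold of 0.05. The 4 groups share 1 estimate of the spread. Tables and figures used Python 3.11.15. Depth sets the precision: a count of 0 allows up to 3 counts, which is 0.313 to 0.597 CPM per WT library and 0.16 (DMSO) and 0.148 CPM (treated) over a group, and these limits and the 95% intervals of ratios cover counting error only. Scripts were tested on simulated data.

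Named genes were the drug target, up to 3 called members of lowest p per list with no overlap between groups, the 8 genes per direction with the largest CPM difference below 2-fold, the 3 of lowest p per direction and level band outside the lists, and the 4 of widest spread per group. Members, lists and rules were chosen with earlier results of these data known. Alternatives were DESeq2 1.42.0, limma-voom (limma 3.58.1), other scalings, filters and thresholds, equal depth, a replicate block, the 6 WT libraries alone and leaving out libraries. Promoter sequences and RefSeq gene starts are of GRCh38.p14 and were matched by gene, with no coordinates moved between builds. Only the first window listed for each gene was used. A few genes and 1 gene list that were analysed are not reported here.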

Additional observations from a re-analysis of the deposited data

Results flagged for a closer look

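In 6 abundant genes the response to GSK-LSD1 differed between the WT and insR cells by the edgeR interaction test, given as log2 response in insR minus that in WT cells. The difference was -0.68 for MT-RNR2, -0.76 for STMN1 and -0.70 for SOX4, and 0.72 for NCL, 0.73 for HSP90AA1 and 0.42 for U2AF1. These genes were chosen by their WT change, which enters the test, so the differences are not separate evidence. Reads that aligned uniquely but outside any annotated gene, which no comparison of genes uses, averaged 18.9% in WT GSK-LSD1 libraries against 16.6% in WT DMSO libraries; the ranges were 18.4% to 19.5% and 16.3% to 16.7%. In insR cells the means were 15.0% in DMSO and 14.5% in treated libraries. What these reads are was not tested.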

How the results depend on the processing

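The count of genes called stayed within 1.5 times 5816 under every alternative run, from 4252 at an adjusted p below 0.01 (2130 higher, 2122 lower) to 5961 with a filter of 1 CPM in 3 libraries; DESeq2 called 5460 and limma-voom 5853. Leaving out 1 WT library gave 4975 to 5619 calls, 2436 to 2769 higher and 2512 to 2850 lower, and 974 to 1047 higher and 526 to 667 lower by at least 2-fold. Upper-quartile scaling gave 3231 higher and 2564 lower (55.8% of calls higher against 50.1%) and moved the median of all genes by 0.05. Counts that moved by over 1.5 times were those below 3 CPM, 438 against 260 at an adjusted p below 0.01 and 661 with no count filter (463 higher there against 291), where with only the 6 WT libraries 81 were lower against 147, and at 3 to 10 CPM, 870 against 554 at 0.01. The interaction count went from 3228 to 1896 at 0.01, and to 2684 to 3199 without 1 WT library. Motif shares over all called genes in place of at least 2-fold sets were 7.64% for AATCAC, 5.81% for AGATAA and 9.28% for CACGTG among higher genes, and 5.27% for AGATAA among lower genes; the cause was not tested. Deviations of same-numbered WT libraries correlated at -0.32, 0.36 and -0.02. Those of differently numbered ones ran from -0.58 to 0.51, the highest for DMSO replicate 3 with GSK-LSD1 replicate 1. The numbers were therefore not taken as pairs. With the replicate block 5818 genes were called (2885 higher, 2933 lower) and 3198 in the interaction. Of 3978 values for the 234 of 240 named genes that were called, 3968 kept direction and side of the threshold, and none reversed. The 10 others were TXN under 8 settings, RPS19 and AQP3 (limma-voom adjusted p = 0.133). Of 976 list medians 10 changed sign, in 4 lists: DNA methylation, cytokine receptors, SRC and SYK adaptors and nuclear receptors. The lean of actin genes turned under 6 alternatives. Genes under 10 CPM are limited by depth.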
